A study of Mus musculus with 6 samples.

Results

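The genes described here encode the subunits of the proteasome and the factors that assemble or activate it, measured in mouse liver. They were taken as all gene symbols of the array annotation that start with Psma to Psmg and end in a number, each represented by its brightest probe, and kept where the deposited intensity passed the detection level of 129 on at least 1 of 6 arrays. Of 47 such symbols, 39 met this rule, among 10039 named genes above that level. The 8 that did not were Psma1, Psma3, Psma6, Psma8, Psmb11, Psmc6, Psmd3 and Psmg4. Nearest to the level were Psmd2 with a highest intensity of 133 on the inside and Psmb11 with 127 on the outside. A dim probe does not show that a transcript is absent, and several of the genes left out encode subunits that every proteasome holds.

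In all, 6 groups of FVB mice aged 10 weeks were profiled, with 1 Illumina array of pooled liver RNA per group. LIXs mice, which carry a doxycycline-inducible (TRE) transgene for Xbp1s, an active transcription factor made from spliced Xbp1 mRNA, were taken after 24 h or 48 h of doxycycline (Dox200) chow. Wild-type (WT) mice had the same chow for 24 h or 48 h, so both genotypes received doxycycline, and all of these mice went without food for 6 h. The other groups were WT mice refed for 2 h and WT mice fasted for 24 h, for which the labels name no doxycycline. The labels used here state neither the cells in which the transgene is driven nor how many animals formed a pool.

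The proteasome degrades proteins that carry ubiquitin. Its 20S core is a barrel with outer rings of alpha subunits, which control entry, and inner rings of beta subunits, of which Psmb5, Psmb6 and Psmb7 cut the substrate. Interferon replaces these by Psmb8, Psmb9 and Psmb10 to form the immunoproteasome, which makes peptides for antigen presentation. The 19S particle caps the core, recognises ubiquitin and unfolds the substrate with a ring of ATPases (Psmc), whereas PA28 (Psme1 with Psme2, or Psme3 alone) and PA200 (Psme4) are activators that need no ATP. In the liver, proteins retrieved from the endoplasmic reticulum (ER) are handed to the proteasome for degradation.

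Hepatocyte markers were present on every array, with all 8 above the level and a summed intensity between 120255 and 174408. The array labelled LIXs at 24 h carried pancreatic acinar transcripts, with a summed intensity of 14 markers of 36602, against 15541 on the array labelled WT at that time. At 48 h these sums were 15849 on the array labelled LIXs and 15335 on that labelled WT. Amy2a5 held most of each sum, with 19880 on the LIXs array at 24 h against 10521 on the WT array. Other acinar markers differed more at 24 h, such as Clps (1744 against 226) and Pnliprp1 (2967 against 353). Cela1 alone ran the other way, at 2329 against 2463. Xbp1 itself read 4537 and 4350 on the arrays labelled LIXs at 24 h and 48 h, and 4259 and 5210 on the WT-labelled arrays. Whether its probe reads the transgene was not tested. Dnajc3 and Syvn1, ER genes known as Xbp1s targets and named after their values were seen, were lower on the arrays labelled LIXs, with log2 differences of -1.32 ± 0.22 and -1.21 ± 0.25 (± SE, 2 LIXs and 2 WT arrays, limma adjusted p = 0.023 and 0.030). Directions are therefore those of the labels. If the LIXs and WT labels had been exchanged, every LIXs minus WT direction given here would turn, and this was not tested.

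The clearest differences lay among the activators. Psme3, which forms the nuclear activator PA28 gamma, had intensities of 609.8 and 677 on the arrays labelled LIXs at 24 h and 48 h, against 1039 and 1183 on the arrays labelled WT. Psme2, the beta subunit of PA28, read 350.4 and 295 on the LIXs arrays, against 503 and 502 on the WT arrays. For both genes the LIXs and WT arrays did not overlap. Averaged over both times, Psme3 fell by 0.89 ± 0.21 on the log2 scale, or 1.85-fold, and Psme2 fell by 0.84 ± 0.22, or 1.80-fold (± SE, 2 LIXs and 2 WT arrays, limma adjusted p = 0.035 and 0.040). These were the 2 of 39 members that passed the limma test over 7652 genes as lower, against a background of 4.47% of all genes, and 0 members passed as higher, against 4.33%. At an unadjusted p under 0.05 there were 5 lower and 2 higher members, against 14.3% and 15% of all genes. Leaving out any 1 of the 4 arrays, in a fit without the time block, ended both calls, with the Psme3 difference then between -0.99 and -0.78 and that of Psme2 between -1.02 and -0.67. The calls also ended in a fit of all 4 arrays without the time block, in a fit without a filter on dim probes and at a more permissive detection level. In whole-liver RNA, fewer cells of a type and less RNA per cell cannot be told apart.

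Psme1, the alpha subunit that assembles with Psme2 into one ring, differed in the other direction. It read 1688 and 1200.1 on the LIXs arrays, against 1155 and 929 on the WT arrays, again without overlap. The averaged difference was 0.50 ± 0.21 (95% interval 0.026 to 0.97, limma adjusted p = 0.151). A second probe of Psme1 gave 0.59, with 773 and 733 on the LIXs arrays, against 589.7 and 479 on the WT arrays. Psme4, which encodes PA200, was lower without overlap, at 1358 and 1663 on the LIXs arrays, against 1755 and 2079 on the WT arrays. Its difference of -0.37 ± 0.21 did not pass the test (limma adjusted p = 0.278). Whether Psme1 and Psme2 differ from each other in their response was not tested, and Psme2 has a relative in mouse, Psme2b, whose binding to the Psme2 probe was not tested.

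**Figure D1:**
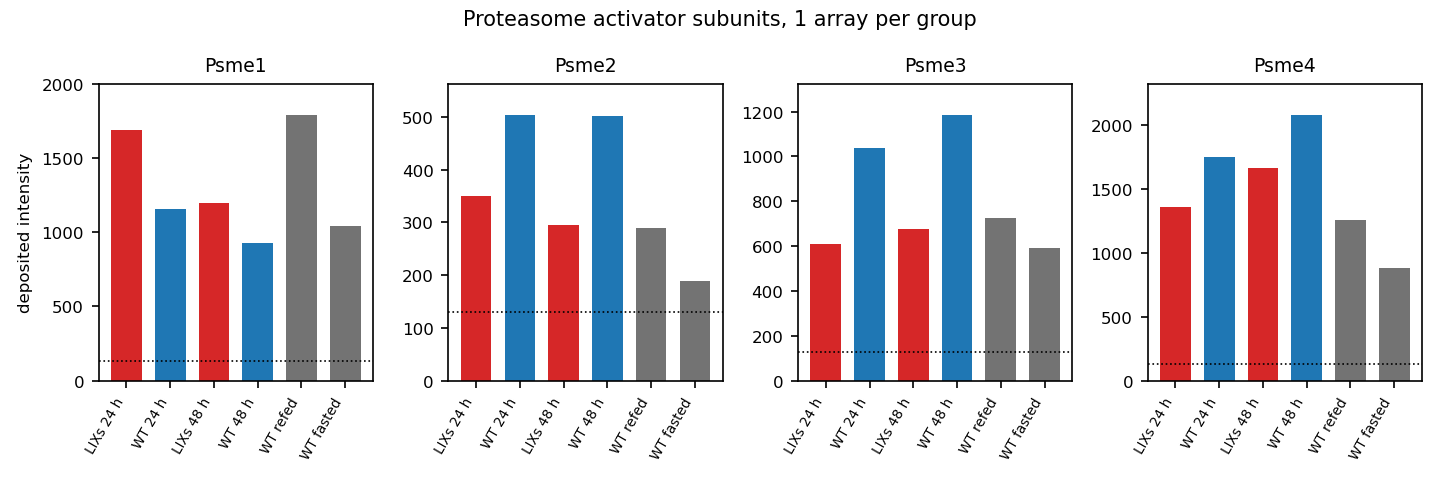
Deposited intensity (linear axis from 0) of the 4 activator genes, with 1 bar per array: LIXs in red, WT on doxycycline in blue and the WT refed and fasted arrays in grey. The dotted line is the detection level of 129. Psme2, Psme3 and Psme4 are lower and Psme1 is higher on both LIXs arrays than on both WT arrays at 24 h and 48 h.

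The acinar markers moved with the genotype label at 24 h and hardly at 48 h. The Psme3 difference was -0.87 at 24 h and -0.90 at 48 h, and that of Psme2 was -0.67 and -1.02, and the part of acinar RNA in them was not tested. The refed and fasted WT arrays, whose labels name no doxycycline, were also low for these genes. They differ from the WT arrays on doxycycline in feeding state too, so the parts of chow and feeding cannot be told apart. Psme3 read 726 on the refed and 591 on the fasted array, and Psme2 read 289 and 188, all below both WT arrays on doxycycline.

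The promoter windows of the activators, from 250 bases before to 50 bases after the start site, are shown because these genes held both calls and differed in direction. They are from RefSeq on build GRCm38.p6, where 33 of the 39 members had a window, and read 5′ to 3′ on the gene's strand. Psme3 lies at chr11:101315963-101316262 (+ strand), Psme2 at chr14:55591052-55591351 (- strand), Psme1 at chr14:55578244-55578543 (+ strand) and Psme4 at chr11:30771525-30771824 (+ strand). Capitals mark matches, on either strand, to the antioxidant response element core TGACNNNGC, which is bound by Nfe2l1, the regulator of proteasome genes, or to the interferon-stimulated response element, searched as TTTC repeated after any 2 bases.
Psme3 promoter: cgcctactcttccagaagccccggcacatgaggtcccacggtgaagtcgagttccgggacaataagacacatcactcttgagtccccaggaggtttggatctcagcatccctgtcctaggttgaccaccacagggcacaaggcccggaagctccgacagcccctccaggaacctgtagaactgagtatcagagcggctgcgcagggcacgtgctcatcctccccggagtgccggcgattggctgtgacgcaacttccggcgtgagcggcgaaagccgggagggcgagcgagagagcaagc
Psme2 promoter: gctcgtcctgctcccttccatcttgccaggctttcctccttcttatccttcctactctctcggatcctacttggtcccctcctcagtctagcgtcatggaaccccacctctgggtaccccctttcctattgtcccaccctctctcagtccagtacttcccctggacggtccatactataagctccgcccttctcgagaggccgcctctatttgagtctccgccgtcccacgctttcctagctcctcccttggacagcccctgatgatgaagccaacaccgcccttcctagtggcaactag
Psme1 promoter: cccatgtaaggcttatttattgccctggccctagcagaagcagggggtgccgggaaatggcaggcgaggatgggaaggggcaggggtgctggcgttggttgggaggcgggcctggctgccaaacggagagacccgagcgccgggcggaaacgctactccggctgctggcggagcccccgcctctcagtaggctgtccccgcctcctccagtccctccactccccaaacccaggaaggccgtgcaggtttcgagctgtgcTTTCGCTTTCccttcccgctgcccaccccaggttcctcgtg
Psme4 promoter: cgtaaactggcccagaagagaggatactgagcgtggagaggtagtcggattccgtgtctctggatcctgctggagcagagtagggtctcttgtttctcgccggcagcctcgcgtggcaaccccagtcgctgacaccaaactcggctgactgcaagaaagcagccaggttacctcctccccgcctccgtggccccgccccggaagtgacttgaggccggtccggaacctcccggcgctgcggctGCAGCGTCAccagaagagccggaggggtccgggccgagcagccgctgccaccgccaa

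The window of Psme1 held the interferon element, beginning 9 bases after its start site. That of Psme4 held the antioxidant core, which began 7 bases before its start site and ran across it. Among the 35 member windows, 14.3% held TGACNNNGC, against 12.4% of all 32851 windows. It was found for Psmb5, Psmb6, Psmd9, Psmd12 and Psme4. The interferon element was found in 11.4% of member windows, those of Psmb3, Psmd4, Psmd9 and Psme1, against 3.44% of all. The core of the unfolded protein response element, TGACGTG, stood in 0 member windows, against 2.01% of all. These are matches of letters in 1 stretch per start site and say nothing of binding.

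The brightest probes of the 3 immunoproteasome subunits each read higher on the LIXs array of either time, although 0 of 3 passed the test. Psmb10, the trypsin-like subunit of that form, read 930.4 and 825 on the LIXs arrays at 24 h and 48 h, against 664 and 577 on the WT arrays, with no overlap. Its averaged difference was 0.58 ± 0.21 (95% interval 0.11 to 1.04, limma adjusted p = 0.104), and a second probe gave 0.48. Psmb8, the chymotrypsin-like subunit, had 511 and 423 on the LIXs arrays, against 421 and 379 on the WT arrays. The Psmb8 ranges were separated by less than the gap between times. Psmb9, the third of these subunits, had 379 and 306 on the LIXs arrays, against 332 and 251 on the WT arrays, and these overlapped. Psmb8 and Psmb9 differed by 0.28 ± 0.21 and 0.34 ± 0.21 (limma adjusted p = 0.421 and 0.310). A second, dim Psmb8 probe gave -0.11, with 139.9 and 129.8 on the LIXs arrays, against 136 and 140.5 on the WT arrays, and the mean of the detected probes was 0.082. Without 1 array the Psmb8 difference lay between 0.11 (LIXs 24 h left out) and 0.45 (LIXs 48 h left out), and that of Psmb9 between 0.044 (WT 48 h left out) and 0.65 (WT 24 h left out).

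Their constitutive counterparts were not higher in the same way. Psmb6, which Psmb9 replaces, read 2963 and 2866 on the LIXs arrays, against 4039 and 3901 on the WT arrays, a difference of -0.46 ± 0.21 (limma adjusted p = 0.177). A second Psmb6 probe gave only -0.11. Psmb7, which Psmb10 replaces, was nearly level at 2395 and 2639.99 on the LIXs arrays, against 2619 and 2623 on the WT arrays. Psmb5, which Psmb8 replaces, was read by a dim probe, with 174 and 201 on the LIXs arrays, against 205 and 185 on the WT arrays, and its difference changed sign between the times. No difference between an immunoproteasome subunit and its counterpart was tested.

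**Figure D2:**
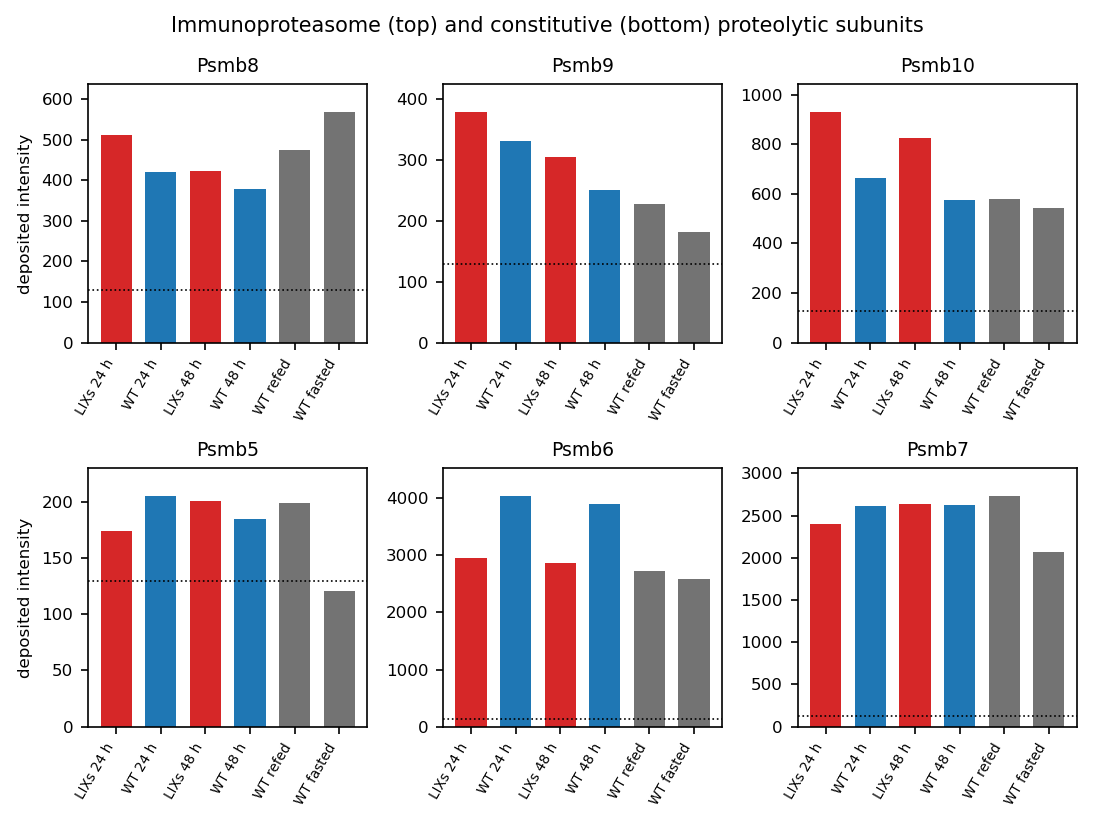
Deposited intensity (linear axes from 0, scaled per gene) of the proteolytic subunits on the 6 arrays, with 1 bar per array: LIXs in red, WT on doxycycline in blue and WT refed or fasted in grey. Each LIXs bar of Psmb8, Psmb9 and Psmb10 is above the WT bar of the same time, and the Psmb6 bars are below it. The dotted line is the detection level of 129.

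Genes that act with the immunoproteasome were read from a list of 13 antigen presentation and interferon genes, of which 10 were measured. In that list 1 gene rose and 0 fell, against 4.33% and 4.47% of all genes, with a median difference of 0.21, against 0.0086 over all genes. The gene that rose was Irf1, an interferon-responsive activator of immunoproteasome genes. It read 745 and 811 on the LIXs arrays, against 443 and 527 on the WT arrays, a difference of 0.81 ± 0.21 (limma adjusted p = 0.042). Tap2, a subunit of the peptide transporter, differed by 0.34 and B2m, the class I light chain, by 0.12, both short of the threshold. Nlrc5, an activator of class I genes, read 129.8 and 142 on the LIXs arrays. It was not above the level on either WT array, at 116 and 124. Nlrc5 differed by 0.58, Ifi47 by 0.66 and H2-K1 by 0.29, all short of the threshold. Below 0 were 4 of the 10, namely Tapbp, Irgm1, H2-D1 and Igtp, of which Tapbp, the chaperone of peptide loading, was lowest at -0.40 from a dim probe. Marker sums of several cell types moved with the genotype label, hepatocytes among them. Hepatocyte markers summed to 174408 and 165951 on the LIXs arrays, against 153062 and 148938 on the WT arrays. Erythroid markers, mostly Hba-a1, summed to 19563 and 19759 on the LIXs arrays, against 14192 and 18318 on the WT arrays. Kupffer cell markers (8 of 9 above the level, Cd5l below it) summed to 2946 and 2815 on the LIXs arrays, against 2521 and 2555 on the WT arrays. Among them Marco ran the other way, at 145 and 134, against 148 and 176. Sinusoidal endothelial markers (6 of 7), mostly Clec4g, summed to 6089.8 and 6193 on the LIXs arrays, against 4909.7 and 4959 on the WT arrays. Neutrophil markers, mostly Lcn2, were lower, at 2547 and 4049 on the LIXs arrays, against 2657.5 and 5226 on the WT arrays of the same times. Lymphocyte markers (4 of 7) summed to 828 and 804 on the LIXs arrays, against 802 and 846 on the WT arrays. The part of these cells in the immunoproteasome values was not tested.

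Among the alpha subunits, 4 of 7 genes were measured, and on all 4 both LIXs arrays lay below both WT arrays, as for 26.9% of all genes. Psma5 had the largest gap, with 5157 and 6168 on the LIXs arrays, against 9163 and 7908 on the WT arrays, and differed by -0.60 ± 0.22 (95% interval -1.10 to -0.11, limma adjusted p = 0.108). Psma2 read 5555 and 6432 on the LIXs arrays, against 7287 and 7811 on the WT arrays, and Psma7 2272 and 2504, against 3037 and 2824. Psma4 was closer, with 2875 and 3188 on the LIXs arrays, against 3529.7 and 3191 on the WT arrays, so that its 48 h pair was level. The median of the group was -0.32, with 0 of 4 past the test.

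The averaged difference was below 0 for all 7 constitutive beta subunits (median -0.14), as for 49.2% of all genes, and 0 passed the test. Psmb2, a structural subunit, had 3426 and 4163 on the LIXs arrays, against 6041 and 5347 on the WT arrays. Its averaged difference was -0.60 ± 0.22 (limma adjusted p = 0.107), and a second probe gave -0.69. Psmb4, another structural subunit, read 7853 and 8661 on the LIXs arrays, against 10746 and 10521 on the WT arrays, a difference of -0.37 ± 0.21. Psmb1 and Psmb3, also structural, differed by -0.14 and -0.077. Of the 7 genes, Psmb1, Psmb2, Psmb4 and Psmb6 had both LIXs arrays below both WT arrays, as had 26.9% of all genes.

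The 5 measured ATPases of the 19S particle had averaged differences between -0.27 (Psmc3) and 0.0087 (Psmc5), with a median of -0.11 and 0 past the test. Psmc2 and Psmc3 were the 2 of 5 whose LIXs arrays both lay below both WT arrays, as for 26.9% of all genes. Among 10 non-ATPase subunits 8 were below 0, against 49.2% of all genes, with a median of -0.11. Again 0 passed the test, against 4.47% of all genes as lower and 4.33% as higher. Of the 8, Psmd8 (-0.0016), Psmd6 (-0.045) and Psmd14 (-0.090) lay close to 0. Psmd13, a subunit of the lid, read 2610.4 and 2847 on the LIXs arrays, against 3499.99 and 4020.3 on the WT arrays, a difference of -0.47 ± 0.21 (limma adjusted p = 0.165). Psmd7, the partner of the deubiquitinase Psmd14, differed by -0.39, but its other probes gave only -0.16 and -0.024. Psmd1, the largest base subunit, differed by -0.25 and Psmd4, a ubiquitin receptor, by -0.13. Psmd11, a lid subunit known to promote assembly, had 216 and 212 on the LIXs arrays, against 210.2 and 169 on the WT arrays, and a difference of 0.35 ± 0.23.

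Assembly factors went both ways, with 4 of 6 below 0, against 49.2% of all genes, and a median of -0.17. Of the 6, 0 passed the test, against 4.47% of all genes as lower and 4.33% as higher. Psmg3, a chaperone of alpha ring assembly, read 416 and 412 on the LIXs arrays, against 523 and 514 on the WT arrays, and differed by -0.41 ± 0.21 (limma adjusted p = 0.228). Psmg2, the partner of Psmg1 in the same step, had 454 and 444 on the LIXs arrays, against 576 and 494 on the WT arrays. Psmg1 lay the other way without overlap, at 317 and 299 on the LIXs arrays, against 282 and 263 on the WT arrays. The base chaperone Psmd10, also known as gankyrin, had 413 and 541 on the LIXs arrays, against 533 and 599 on the WT arrays, and its other probes differed in sign. The base chaperones Psmd5 and Psmd9 were dim. Psmd5 read 117 and 133 on the LIXs arrays, against 133 and 119 on the WT arrays, and Psmd9 read 144 and 154, against 152 and 145. They differed by -0.040 and 0.015.

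Over the whole family, 30 of 39 members had an averaged difference below 0, or 76.9%, against 49.2% of all genes, with a median of -0.14 against 0.0086. Both LIXs arrays lay below both WT arrays for 19 members (48.7%, against 26.9% of all genes) and above them for 5 (12.8%, against 29.1%). The 5 were Psmb8, Psmb10, Psmd11, Psmg1 and Psme1. The direction was therefore one of many small differences, and 2 calls of 39 lie near the background share. Of the 12 members with several probes above the level on all arrays, 9 had the same sign on each probe in the averaged difference, the exceptions being Psmb7, Psmc5 and Psmd10.

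**Figure D3:**
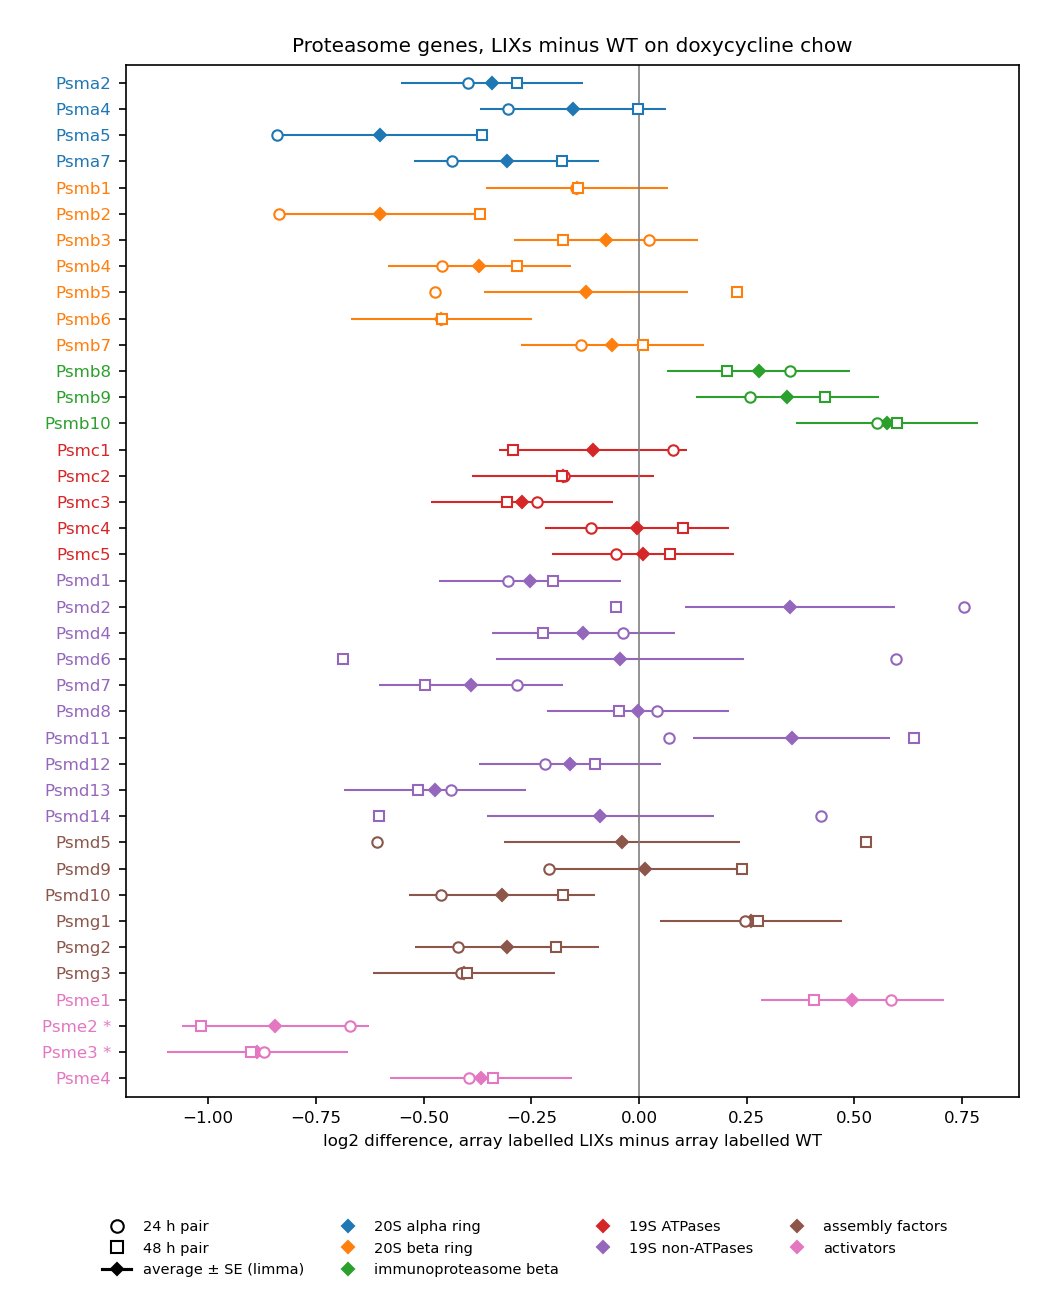
LIXs minus WT, in log2 units (horizontal axis), for each of the 39 members, coloured by role: the 24 h pair (circles), the 48 h pair (squares) and their limma average with its SE (diamonds and bars). Asterisks mark Psme2 and Psme3, which passed the limma test, and most averages lie left of 0 except those of the immunoproteasome subunits, Psme1 and a few others.

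In the single pairs, a difference of 1.5-fold was counted, without a test. The LIXs array was the lower one for 27 of 39 members at 24 h, against 48.8% of all genes, and for 27 at 48 h, against 49.7%. At 24 h, 5 of 39 members were lower by that much, against 15.7% of all genes, and 3 were higher, against 14.6%. The lower ones were Psme3, Psma5, Psmb2, Psme2 and Psmd5, and the higher ones Psmd2, Psmd6 (0.60) and Psme1 (0.59). The lower ones other than Psmd5 had log2 differences from -0.87 to -0.67. Psmd5 on the LIXs array and Psmd2 on the WT array were not above the detection level at 24 h, so that in deposited intensity only at least 1.02-fold higher was measured for Psmd2 and at least 1.03-fold lower for Psmd5, short of 1.5-fold. At 48 h, 4 members were lower, against 12.4%, namely Psme2, Psme3, Psmd6 and Psmd14, and 2 were higher, against 12.3%, namely Psmd11 (0.64) and Psmb10 (0.60), followed by Psmd5, whose WT array was not above the level and which was at least 1.03-fold higher in deposited intensity. Psmd6 was not above the level on the LIXs array and was at least 1.15-fold lower in deposited intensity. Past 2-fold there were 0 members in either direction at 24 h, against 4.91% of all genes lower and 3.72% higher. At 48 h Psme2 alone was lower by 2-fold, against 2.47%, and 0 were higher, against 1.59%. Psmd2, Psmd5 and Psmd6 are read by dim probes. Psmd2, a scaffold of the base, read 133 and 131 on the LIXs arrays at 24 h and 48 h, against 112 and 132 on the WT arrays. Without background correction the counts were 3 lower and 0 higher at 24 h, and 2 lower and 0 higher at 48 h.

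Between the times on doxycycline little differed. The effect of 48 h against 24 h passed the limma test for 0 of 39 members, as for 0% of all genes, and at an unadjusted p under 0.05 for 1 member, Psmb9 (-0.51), against 10% of all genes. Psmb8, Psmb9, Psmb10 and Psme1 were lower at 48 h than at 24 h under both genotype labels, on their brightest probes. So were Psmb6, Psmc3, Psmc5, Psmd8, Psmd11, Psmg1, Psmg2, Psmg3 and Psme2, and the share over all genes was not counted. The second, dim Psmb8 probe read 136 at 24 h and 140.5 at 48 h on the WT arrays. For Psme1 the difference of 48 h minus 24 h was -0.53 between the LIXs arrays and -0.35 between the WT arrays, and for Psmb9 -0.43 and -0.60. By 1.5-fold, 2 members were lower (Psmd6 and Psmd14, against 5.67% of all genes) and 1 higher (Psmd5, against 5.96%) between the LIXs arrays, where 1 array of each was not above the level and the deposited intensity was at least 1.22-fold lower for Psmd6 and at least 1.03-fold higher for Psmd5. The next largest increases between the LIXs arrays were those of Psmd10 (0.49) and Psmb5 (0.42). Between the WT arrays 2 were lower (Psmd11 and Psmb9, against 8.98%), followed by Psmd5 (at least 1.03-fold lower in deposited intensity), and 1 was higher (Psmd2, against 10.8%, at least 1.02-fold in deposited intensity). Members below 0 numbered 18 of 39 between the LIXs arrays, against 46.4% of all genes, and 23 between the WT arrays, against 50.8%. Past 2-fold there were 0 members, against 0.825% of all genes lower and 0.5% higher between the LIXs arrays, and 1.3% lower and 2.45% higher between the WT arrays. Psmd4 and Psmd7 followed among the WT increases, at 0.49 and 0.42. Psmd4 read 3157 and 3872 on the LIXs arrays at 24 h and 48 h and 3235 and 4501 on the WT arrays.

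The feeding state was compared between 1 refed and 1 fasted WT array, so that no difference has a replicate check. Of 36 members above the level on either array, 7 were higher by 1.5-fold on the refed array, against 24.7% of all genes, and 4 were lower, against 28%. The difference was below 0 for 14 of 36, against 53.8% of all genes. Past 2-fold 3 were higher, against 12.3%, and 1 was lower, against 11.9%. Among the higher ones were Psme2 at 1.05, Psme1 at 0.84 and Psmb9 at 0.61 on the log2 scale, that is 2 of 4 activators and 1 of 3 immunoproteasome subunits. Psme1 read 1788 on the refed and 1042 on the fasted array, and its second probe gave 0.82. Psmb9 read 228 and 181, short of 1.5-fold in deposited intensity, while Psmb8 had 475 on the refed and 567 on the fasted array. Psmb10 had 579 on the refed and 542 on the fasted array, and its probes disagreed, at 0.12 and -0.56. Psme4 completed the activators, all 4 of which were higher on the refed array, with 1258 there and 885 on the fasted array (0.56). Neutrophil markers (6 of 8 above the level, Camp and Ltf below it) summed to 19543 on the refed and 5389 on the fasted array. Lcn2, which hepatocytes also make, held most of this sum with 17320 and 4370.1, S100a8 read 1436 and 343, and Ngp ran the other way with 108.5 and 135. Their part in these values was not tested.

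The core subunits split in this comparison. Psmb1, a structural subunit, was higher on the refed array by 0.94, with 2449 against 1323 on the fasted array. The Psmb5 and Psmd11 probes passed the level on the refed array alone, with 199 and 213, and were at least 1.54-fold and 1.64-fold higher in deposited intensity, without background correction. Psmd5 was higher by 0.86, at 161 on the refed and 130.3 on the fasted array, which is short of 1.5-fold in deposited intensity. Psmb6 was nearly level, at 2724 on the refed and 2592 on the fasted array, and Psmb7 had 2729.9 and 2074. The Psmb7 probes disagreed, at 0.41, 0.51, 0.16 and -1.45, the last with 798 on the refed and 2023 on the fasted array. Of the 12 members with several probes above the level on all arrays, 7 had the same sign on each probe in this comparison. The exceptions were Psma7, Psmb7, Psmb10, Psmd7 and Psmd10. The 4 lower members were Psmg3 (-1.08, with 433 on the refed and 811 on the fasted array), Psmb2 (-0.83, with 4192 and 7367), Psma7 (-0.79, with 2628 and 4477) and Psma2 (-0.73, with 6307 and 10428). Among the other assembly factors, Psmg1 read 442 on the refed and 501 on the fasted array, Psmg2 478 and 457, and Psmd10 499.8 and 553, whereas Psmd9 was below the level on both, at 121 and 113. The second Psmb2 probe gave -0.50, whereas that of Psma7 gave 0.16. Set against all other WT arrays, the fasted array was the lowest for 21 of 39 members (53.8%), against 33.7% of all genes, and the highest for 10 (25.6%), against 37.3%. Psma2 and Psma7 of the alpha ring were among its highest and Psma4 and Psma5 among its lowest, but on the second Psma7 probe the fasted array was the lowest, at 2509.

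**Figure D4:**
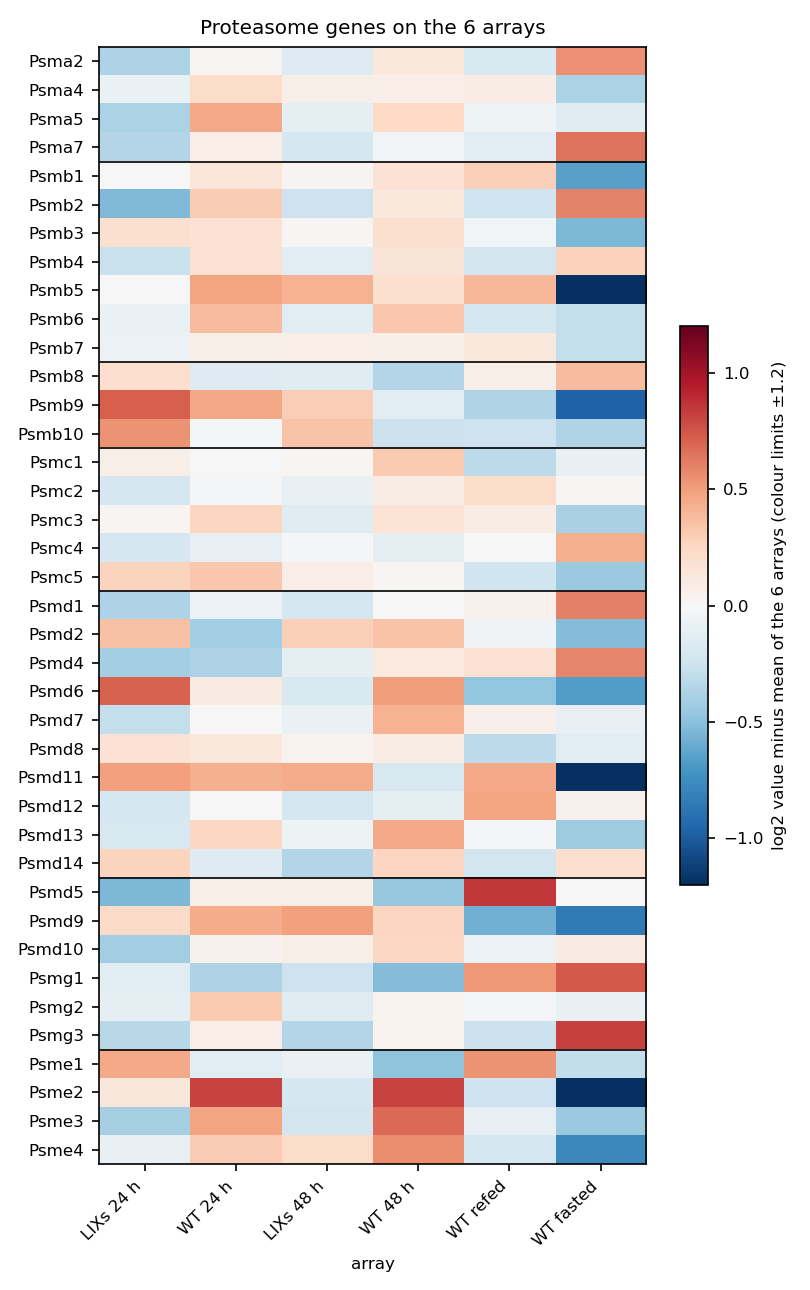
Log2 value of the 39 members on each array (columns) minus the member's mean over the 6 arrays, in red where higher and blue where lower, with values past ±1.2 in the end colour. Rows run by role, separated by lines, and the fasted array holds the deepest colours, with Psmb5, Psmd11 and Psme2 low and Psma7 and Psmg3 high.

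Other genes of the pathway were read from a list of 27 proteasome cofactors, shuttles and regulators, of which 15 were measured. Here 2 fell and 0 rose, against 4.47% and 4.33% of all genes, with a median of -0.19. Vcp, the ATPase that extracts ubiquitinated proteins from the ER membrane, read 4687 and 6215 on the LIXs arrays, against 9911 and 10057 on the WT arrays, and fell by 0.90 ± 0.22 (limma adjusted p = 0.036). Ufd1, its cofactor, fell as well, by 0.70 at 48 h on the log2 scale (limma adjusted p of the average = 0.032). Its probe was dim, and on the LIXs array of 24 h not above the level, with 124 and 136 on the LIXs arrays, against 170.4 and 163 on the WT arrays. Nploc4, the partner of Ufd1, differed by -0.43 and Zfand2a, a stress-induced proteasome adaptor, by -0.75, both short of the threshold. Pomp, which completes core assembly, differed by -0.43, and Nfe2l1, the transcription factor that induces proteasome genes, by -0.38 (limma adjusted p = 0.255), at 967 and 916 on the LIXs arrays, against 1231 and 1169 on the WT arrays. Above 0 were 6 of the 15, none past the test. The highest was Nfe2l2 at 0.52, the regulator of the antioxidant response, followed by the proteasome adaptor Ecpas (0.17), the small lid subunit Sem1 (0.14), the ubiquitin shuttle Rad23b (0.12) and the ubiquitin ligase Ube3c (0.11). Of 7 ubiquitin genes and activating enzymes 2 were measured. Uba3, which activates the ubiquitin-like protein Nedd8, fell by 0.80 ± 0.22 (limma adjusted p = 0.048), at 151 and 128 on the LIXs arrays, against 183 and 162 on the WT arrays, of which 128 is not above the level, and Uba6, an activating enzyme of ubiquitin itself, differed by -0.48. With all 4 arrays but no time block, 0 of all genes were called. The calls of Vcp, Ufd1, Uba3 and Irf1, and those of Dnajc3 and Syvn1, ended in that fit as well.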

How the data were processed

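Expression was measured on 6 Illumina arrays of pooled liver RNA. The authors deposited linear intensities of 45281 probes, made with GenomeStudio per the submitters' processing notes, which state no version. The deposited columns had nearly one distribution (log2 gap at most 0.0199), so they were taken to be already normalized between arrays, with background still in them. A further 12 columns, 6 of signal, match no sample and were not used.

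The background level was the mode of all values, 109, with an SD of 7.67. Of the mirrored background, a share of 0.01 exceeds the detection level of 129. Values were corrected with normexp at that level, given an offset of 16, quantile-normalized and put on the log2 scale (limma 3.58.1, R 4.3.3). Each of 19057 named genes took its probe with the highest mean intensity. All 47 symbols matched RefSeq.

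The averaged difference came from limma (lmFit, eBayes) on the 4 Dox arrays with time as a block, over 7652 genes above the level on at least 2 of them, with Benjamini-Hochberg adjustment to 0.05. With 1 residual degree of freedom and 9.69 from the prior, members' standard errors (0.21 to 0.29) are mostly that of all genes together. With 1 array per genotype and time, a gene's own residual is the change of its LIXs minus WT difference between 24 h and 48 h. The times thus stand in for replicates, and p-values measure no spread between animals or between arrays of 1 group. The number of arrays, each of a pool, limits the precision. A run of the fit on simulated data used the same LIXs minus WT difference at both times. It therefore could not test the use of the times as replicates. Pairs of single arrays had no test.

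Members, lists, tests and the rule for naming genes were chosen with earlier results of these data known. Every member may be named. The rule for giving array values covered the proteolytic subunits, the activators, the assembly factors and members past the test. It also covered the 3 largest differences in each direction of each pair. Not every array value of these genes is printed. Alternatives changed background, offset, normalization, detection level, filter, block, prior, probe rule, fold and arrays.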

Additional observations from a re-analysis of the deposited data

Results flagged for a closer look

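The background-corrected LIXs minus WT difference had opposite signs at 24 h and 48 h for 12 members, and for 3 of them it was 0.42 or more in size on the log2 scale at both times, with 1 array per group and time, and the difference between times was not tested. Psmd14, the deubiquitinase of the lid, differed by 0.42 at 24 h and -0.60 at 48 h, with 409.9 and 300.1 on the LIXs arrays, against 329 and 408 on the WT arrays. A second Psmd14 probe gave -0.49 at 24 h and 0.0016 at 48 h. For Psmd6, a lid subunit, the background-corrected difference was 0.60 at 24 h and -0.69 at 48 h, from 157 and 128 on the LIXs arrays, against 136 and 149 on the WT arrays. The LIXs array of 48 h was not above the detection level of 129 for Psmd6, which was there at least 1.15-fold lower in deposited intensity. For Psmd5, a base chaperone, it was -0.61 and 0.53, from 117 and 133 on the LIXs arrays, against 133 and 119 on the WT arrays. The lower array of each Psmd5 pair was not above the level, so that only at least 1.03-fold was measured each way in deposited intensity.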

How the results depend on the processing

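Of the 39 members, 30 had an averaged difference below 0, and between 26 and 31 did under the alternatives. The 2 calls, Psme2 and Psme3, kept their sign under every alternative. They passed also with median centring, the stricter detection level, the mean of the detected probes and a filter on all 4 Dox arrays. Without background correction 6 members were called lower and 2 higher, with an offset of 50 4 and 1, and with an intensity trend 7 and 1. The count was 0 at the more permissive detection level, without a filter and with no replicate block (time on Dox left out), where 4, 7 and 4 members were lower at an unadjusted p under 0.05 by limma. Over all genes the 673 calls became 1670, 1281, 1432, 0, 0 and 0 under these settings, in the same order. Leaving out any 1 Dox array, which also drops the block, gave 0 calls of members lower or higher (2 to 4 lower at an unadjusted p under 0.05) and 0 to 221 over all genes. The lone array of a group is then assumed to vary like the others. Labels give no replicate numbers, so time on Dox is the only pairing.

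Counts of members past 1.5-fold depended on the background step. At 24 h the 5 lower and 3 higher became 3 and 0 without it, 0 higher with an offset of 50, and 0 and 0 at 2-fold. At 48 h the 4 lower and 2 higher became 2 and 0 without it, 2 and 0 with an offset of 50, 1 and 0 at 2-fold, and 0 higher with the mean of the detected probes. Between times, the 2 lower and 1 higher in each genotype became 0 and 0 without it, with an offset of 50 and at 2-fold, 1 lower with the mean of the detected probes and 0 higher at the stricter level. For refed against fasted, 4 lower and 7 higher became 4 and 5 without it and with an offset of 50. They became 3 and 9 with the mean of the detected probes, and 1 and 3 at 2-fold.

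With the mean of the detected probes, differences reversed for Psmc2 (0.22), Psmc5 (-0.022) and Psmd9 (-0.13). Without 1 array the following reversed, none of them called: Psmd4 (-0.37 to 0.12), Psmb3 (-0.16 to 0.010), Psmb7 (-0.13 to 0.011), Psmc4 (-0.10 to 0.091), Psmc5 (-0.15 to 0.17), Psmc1 (-0.27 to 0.055), Psmd14 (-0.40 to 0.22), Psmb5 (-0.33 to 0.086), Psmd8 (-0.064 to 0.061), Psmd9 (-0.12 to 0.15), Psmd6 (-0.49 to 0.40), Psmd5 (-0.30 to 0.27) and Psmd2 (-0.020 to 0.72). The causes were not tested.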
